A study of Homo sapiens with 24 samples.

Results

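RES-A cells given 10 nM dihydrotestosterone (DHT) were compared with RES-A cells given the solvent DMSO, in 3 libraries per group, which are 6 of the 24 libraries of the series. RES-A is a subline of the human prostate cancer line LNCaP that was grown in the presence of enzalutamide (ENZ) until it resisted the drug, so the results describe a single selected subline. The assay was FAIRE-seq, in which sheared, cross-linked chromatin is extracted with phenol and the DNA that is not held by nucleosomes is sequenced. Before treatment both groups spent 3 days in RPMI with 10 µM ENZ and 5% serum that had been stripped of steroids with charcoal. DHT or DMSO was then applied for 18 h. The labels describe the libraries as biological triplicates and do not say whether ENZ was washed out before DHT or DMSO was added.

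Androgens such as DHT are steroid hormones that act on gene expression in the nucleus, where hormone signalling, with the help of pioneer factors such as FOXA1, leads to the displacement of nucleosomes at enhancers. Enzalutamide blocks this signalling. Androgen-dependent genes such as KLK3, which encodes prostate-specific antigen, are read as signs of its activity in the prostate.

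Regions at several known androgen target genes opened with DHT in RES-A. The region 13.7 kb upstream of TMPRSS2, a serine protease gene whose promoter drives androgen-dependent gene fusions in prostate cancer, rose 2.04-fold, and a region inside FKBP5, which encodes a chaperone of steroid receptors, rose 2.37-fold. The strongest regions rose about 6-fold. Of the 9 regions tested at the pioneer factor gene FOXA1 4 fell and 1 rose, and of the 5 at the homeobox gene HOXB13 3 fell. Across the genome 70424 regions were tested, of which 10021 rose (14.2%) and 9854 fell (14%), and changes of at least 2-fold were more often increases, with 3203 regions (4.55%) against 632 (0.897%).

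The measurement behind these values was the summit pileup, the number of reads that overlap at the highest point of a peak, as the authors' peak caller wrote it. The 50000 top-ranked peaks of the 6 libraries were merged into 73799 regions, and those with a peak of any rank in all 6 libraries (95.4%) were tested. Pileups were put on one scale by quantile normalisation and are called normalised pileups below. They were tested on the log2 scale with limma, and a region passed at an adjusted p (Benjamini-Hochberg over all regions) under 0.05. Log2 changes are DHT minus DMSO, so that positive values mean more open chromatin with DHT. Errors are standard errors of the fit (n = 3 per group), in which limma draws each region's variance towards a trend over all regions. That trend carried 189.5 degrees of freedom, so errors and p-values rest mostly on variance shared between regions, not on the 3 libraries at each region. Without the trend the shared variance carried 7.55 degrees of freedom, and 17056 regions passed. In bulk chromatin a region that is open in more cells cannot be told apart from one that is open more of the time in each cell.

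The 3 DHT libraries held 169514, 176254 and 191488 peaks and the 3 DMSO libraries 194848, 204397 and 199686. All 3 DHT libraries had fewer peaks than any DMSO library, and an exact two-sided permutation test gave p = 0.1, the smallest that 3 against 3 libraries allow (adjusted p = 0.333 over 5 library values). Read totals were not used here, but the background that the peak caller used, which follows depth, was 1.99, 1.81 and 3.16 reads per base with DHT and 2.73, 3.5 and 3.49 with DMSO. The background was thus lower on average with DHT, although DHT replicate 3 was above DMSO replicate 1. A fit with log2 background as a covariate called 10300 regions in place of 19875, and increases made up 61.3% of its calls against 50.4%.

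The libraries grouped by treatment. The Jaccard index, here the share of regions with a top-ranked peak in either library of a pair that had one in both, was 0.713 to 0.731 between DHT libraries, 0.741 to 0.754 between DMSO libraries and 0.601 to 0.632 between a DHT and a DMSO library. Of the 9 luminal prostate markers that could be placed, 8 had a peak within 1 kb of the gene start in all 6 libraries, HOXB13 and FOXA1 among them. KLK3 had one in 5 libraries. Of 4 markers of other cell types, VIM had no peak at its start in any of the 6 libraries and PTPRC had one in 1 library, while ALB had one in 6 and COL1A1 in 5.

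**Figure D1:**
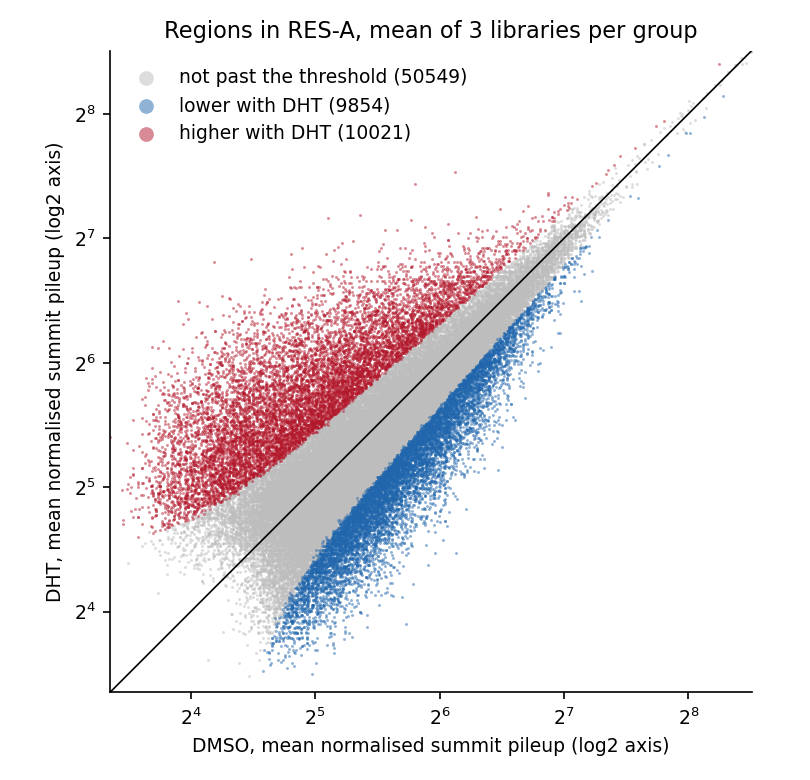
Mean normalised summit pileup of each tested region with DMSO (horizontal, log2 axis) and DHT (vertical, log2 axis), 3 libraries per group. Each point is a region, red points (10021) rose and blue points (9854) fell at an adjusted p under 0.05, and the line marks equal levels. The points farthest from the line lie on the side of DHT.

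The 5 regions with the largest increases started from low levels with DMSO. The first, at chr1:180497899-180498416 (hg19, as are all region positions), had normalised pileups of 108, 110 and 117 with DHT and 16.7, 17.5 and 20.5 with DMSO. Its log2 change was 2.62 ± 0.16 (6.15-fold, adjusted p = 1.39e-32). The second, at chr14:53012282-53012818, stood at 84.8, 103 and 83.5 against 16.7, 13.4 and 14.7 (6.05-fold). In both regions every DHT library was far above every DMSO library, but only regions whose groups did not overlap were eligible to be named. The other 3 lay at chr16:16135009-16135544, chr3:66622355-66623152 and chr7:1136858-1137236 and rose 5.51-, 5.41- and 5.41-fold.

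The largest decreases were smaller. At chr18:70592509-70592987 the normalised pileup was 10.7, 13.4 and 20.5 with DHT and 46.9, 57.1 and 55.6 with DMSO, a log2 change of -1.89 ± 0.23 (3.70-fold lower, adjusted p = 3.48e-12). At chr2:118819474-118820074 it was 17.5, 26.5 and 22.6 against 77.6, 68.0 and 64.9 (3.20-fold lower). The groups were apart in both, which the same choice required. Regions at chr1:202056048-202056555, chr10:33749894-33750241 and chr1:156463032-156463477 fell 3.04-, 3.0- and 2.98-fold.

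Among all tested regions the median log2 change was -0.05, and the values of the groups did not overlap in 26510 (37.6%). Regions that rose had a median change of 0.80 and those that fell a median of -0.61. The groups did not overlap in 94.9% of the regions that rose and 89.2% of those that fell. Both kinds were found at every level of openness. Of the 17606 regions with the lowest mean pileup 15.6% rose and 13.6% fell, and of the 17606 with the highest 12.3% rose and 12.8% fell.

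Peak length, summed over the peaks of a region, was tested with limma on a log2 scale. Each library was centred on its median in place of quantile normalisation. In this test 2529 regions passed (3.59%), 1843 with longer (2.62%) and 686 with shorter (0.974%) peaks with DHT. Of the 3203 regions whose pileup rose at least 2-fold, 1075 (33.6%) also had significantly longer peaks. Their median peak length was 425, 412 and 439 bp in the DHT libraries and 279, 287 and 304 bp in the DMSO libraries. Of the 632 that fell at least 2-fold, 101 (16%) had significantly shorter peaks, with medians of 233, 240 and 285 bp against 373, 387 and 403 bp. Length and pileup come from the same reads, so the length is not an independent measure, and leaving out a single library brought the count of length calls to between 354 and 1190.

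Presence and absence of peaks went mostly one way. A region counted as called with 1 treatment alone where all 3 libraries of that treatment had a top-ranked peak and none of the other 3 had a peak of any rank. Of the 73799 regions 178 (0.241%) were called with DHT alone and 1 (0.00136%) with DMSO alone. With 25000 top-ranked peaks the counts were 16 and 0. When every deposited peak counted as top-ranked, they were 5655 and 5080, so the imbalance was seen among strong peaks and was much smaller over all peaks.

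The 3 regions called with DHT alone that ranked highest within their libraries differed in the rest of the series. At chr12:102009827-102010285 the deposited, unscaled pileups were 69, 73 and 110 in the DHT libraries, and 9 of 12 parental LNCaP libraries also had a peak. At chr6:108914095-108914560 they were 77, 66 and 103, and 11 LNCaP libraries had a peak. The region at chr1:144982924-144983311, with pileups of 72, 70 and 109, had no peak in any LNCaP library. The region called with DMSO alone, at chr16:86759905-86760292, had pileups of 43, 40 and 50 in the DMSO libraries and no peak in LNCaP. When ENZ was given together with DHT, all 3 of the DHT regions had a peak in each of the 3 RES-A libraries, at pileups from 38 to 69. With ENZ and no DHT, the chromosome 12 region also had a peak in each of the 3 RES-A libraries (44, 69 and 36). The chromosome 6 region had pileups of 32 and 20 in ENZ replicates 2 and 3, and the chromosome 1 region had no peak with ENZ. The region called with DMSO alone had a peak in all of these RES-A libraries. Its pileups were 27, 15 and 20 with DHT and ENZ together and 27, 64 and 25 with ENZ. Over the 178 regions, 86.5% to 94.4% had a peak of some rank in the RES-A libraries with DHT and ENZ together (DHT+ENZ), 28.1% to 41.6% in those with ENZ, and 77.0% to 98.3% in the LNCaP libraries with DHT. In LNCaP with DMSO the share was 57.9% to 75.8%, below the 84.9% to 93.9% of all tested regions. Of all tested regions, 99.9% had a peak in the RES-A libraries with DHT+ENZ and 99.7% to 100% in those with ENZ. In LNCaP with DHT the share of all tested regions was 58.7% to 90.7%. The tested regions had a peak in all 6 libraries of the comparison, which the 178 regions by definition did not.

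For genes known to be induced by androgen, a locus was taken as the gene and 50 kb on either side. At 36 androgen-induced genes 361 regions were tested, of which 87 rose (24.1%, against 14.2% of all tested regions) and 31 fell (8.59%, against 14%). Their median log2 change was 0.06, against -0.05 over all regions. Of these 36 loci 33 held at least 1 region that rose, and 22 at least 1 that fell. A locus held a median of 10 tested regions, and the share of all gene loci that hold a region that rose was not computed, so these counts of loci are not set against a background. The region with the smallest adjusted p had risen at 31 loci and fallen at 5, which were those of NDRG1, HPGD, ACSL3, TRPM8 and INPP4B. With 10 kb on either side 56 of 233 regions rose (24%) and 23 fell (9.87%), against 14.2% and 14% of all regions. With the authors' fold enrichment in place of pileup 44 of 361 rose (12.2%, against 9.41% of all regions) and 30 fell (8.31%, against 7.16%). Both shares were then nearer to those of all regions, and the share that fell was above that of all regions and no longer below it.

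The clearest change lay at SLC45A3, the gene of prostein, a transporter-like membrane protein characteristic of prostate epithelium. Its strongest region, 30.0 kb upstream at chr1:205679338-205679994, had normalised pileups of 82.4, 85.1 and 75.1 with DHT and 24.4, 21.8 and 21.3 with DMSO. The log2 change was 1.85 ± 0.17 (adjusted p = 5.48e-19). A second region 18.6 kb upstream rose by 1.51 ± 0.15 (adjusted p = 1.63e-17), while a neighbour 30.8 kb upstream changed by -0.01 ± 0.15 and did not pass. Of the 10 regions tested at the locus 2 rose, 1 fell and the others did not pass.

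Other androgen-induced loci also held regions that rose, both near the gene start and far from it. The region 34.9 kb upstream of SORD, which encodes sorbitol dehydrogenase, had 77.4, 82.5 and 77.6 with DHT and 28.2, 25.1 and 28.2 with DMSO (2.92-fold, adjusted p = 1.71e-15). At ELL2, the gene of a transcription elongation factor, a region 27.6 kb upstream stood at 68.9, 74.6 and 74.3 against 27.6, 19.6 and 23.4 (3.11-fold). At CAMKK2, which encodes a kinase that activates AMP-activated kinase, a region 2.02 kb upstream stood at 74.9, 97.3 and 92.0 against 25.3, 41.0 and 31.6 (2.73-fold). No DHT library overlapped a DMSO library at these 3 regions, which was also so at 94.9% of all regions that rose. Regions inside IQGAP2 (a scaffold protein), PLPP1 (a phospholipid phosphatase), ALDH1A3 (a retinaldehyde dehydrogenase), MERTK (a receptor tyrosine kinase) and ABHD2 (a hydrolase) rose 2.45-, 3.16-, 2.59-, 2.87- and 2.49-fold.

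**Figure D2:**
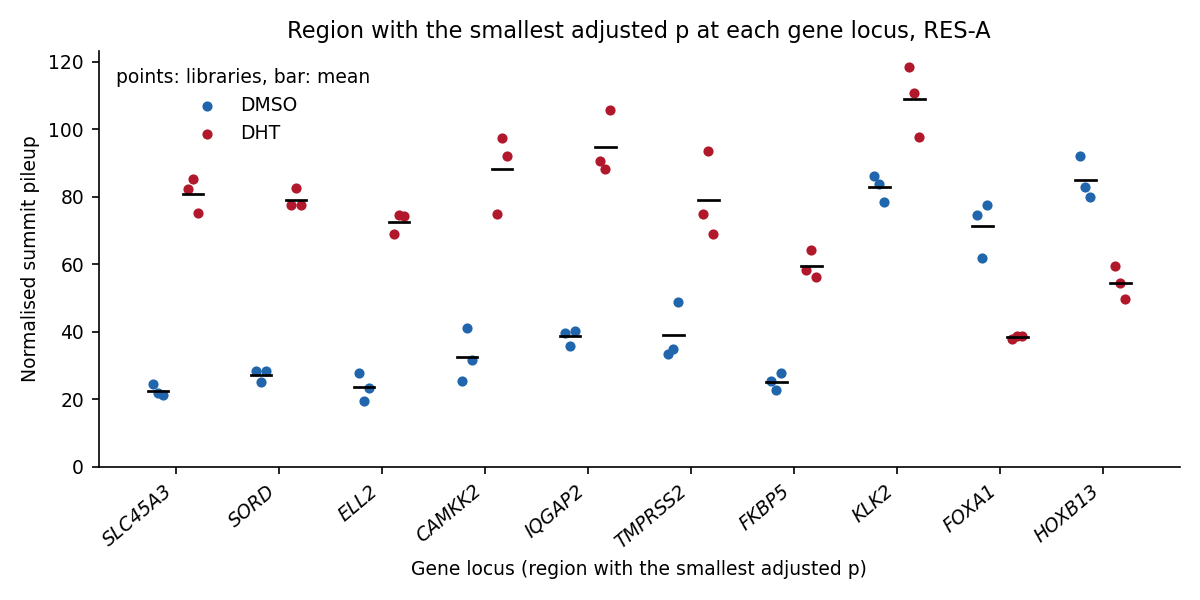
Normalised summit pileup (vertical axis, from 0) in each of the 6 libraries at the region with the smallest adjusted p of 10 gene loci, with DMSO in blue, DHT in red and the mean as a bar. DHT lies above DMSO from SLC45A3 to KLK2 and below it at FOXA1 and HOXB13.

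TMPRSS2 rose at a cluster of upstream regions and not at its promoter. The region 13.7 kb upstream of the gene start, at chr21:42893523-42893954, had normalised pileups of 74.9, 93.4 and 68.9 with DHT and 33.3, 35.0 and 48.9 with DMSO (log2 change 1.03 ± 0.15, adjusted p = 5.06e-09). Regions 12.6 and 18.5 kb upstream rose by 0.81 ± 0.16 and 0.47 ± 0.11, and one beyond the gene's end, 74.3 kb from its start, by 0.94 ± 0.14. At the start itself the change was -0.18 ± 0.13 (adjusted p = 0.35), and a region 1.40 kb into the gene fell by 0.34 ± 0.13 on the log2 scale (adjusted p = 0.0372). With fold enrichment in place of pileup, the region 13.7 kb upstream did not pass (log2 change 0.34, adjusted p = 0.228).

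FKBP5 rose within its body. The region 97.8 kb into the gene, at chr6:35598369-35598799, stood at 58.4, 64.1 and 56.1 with DHT and 25.3, 22.6 and 27.6 with DMSO (log2 change 1.24 ± 0.18, adjusted p = 2.66e-09). Further regions 40.9 kb and 1.65 kb into the gene rose by 1.02 ± 0.18 and 0.70 ± 0.13, and no region of the locus fell. The groups did not overlap at the region 97.8 kb into the gene.

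**Figure D3:**
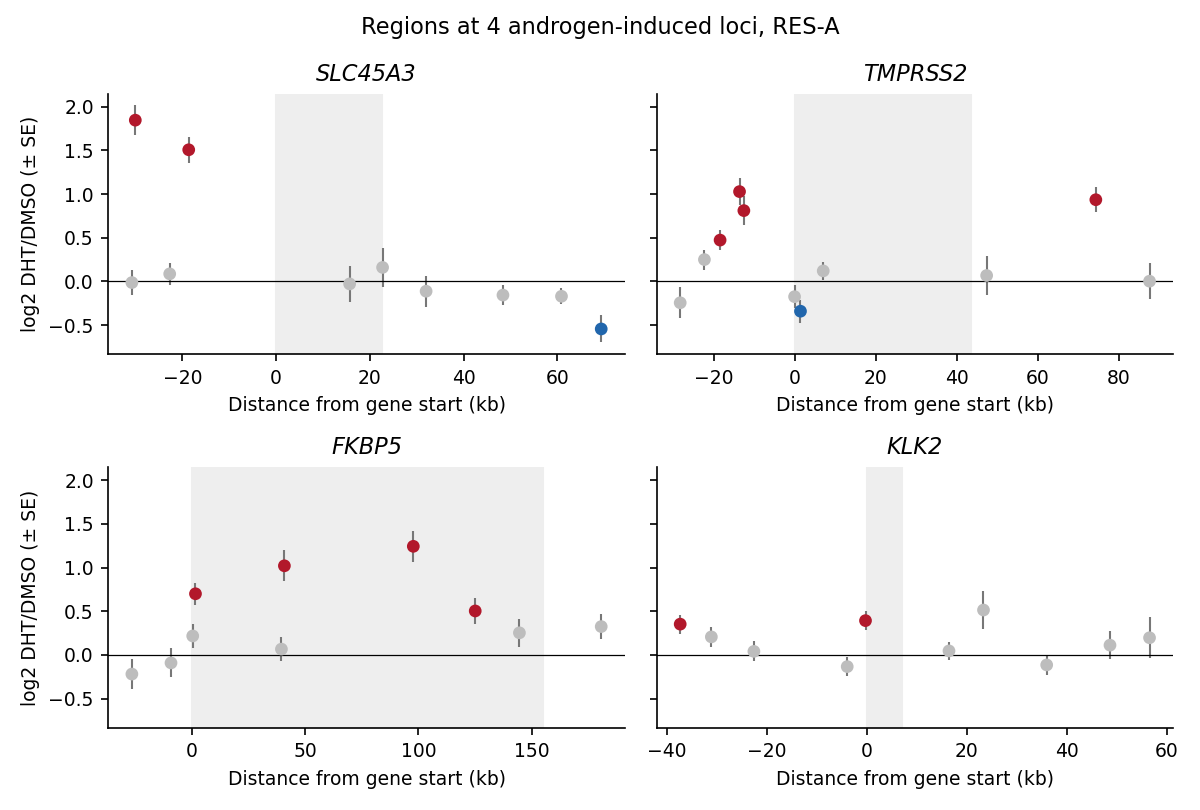
Log2 change with DHT (vertical axis, ± SE) of every tested region at SLC45A3, TMPRSS2, FKBP5 and KLK2 against the distance of its centre from the gene start in kb (negative upstream), with the gene shaded. Red regions rose, blue regions fell and grey regions did not pass. At SLC45A3 and TMPRSS2 most of the red points lie upstream, and at FKBP5 they lie within the gene.

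The tested regions at the kallikrein genes KLK2 and KLK3, neighbours that encode secreted serine proteases, changed little. The sequences before their starts are shown because the region with the smallest adjusted p of the locus lay at the KLK2 promoter, and because both hold a degenerate form of the steroid response element. These are the 250 bases before each gene start on the plus strand, from RefSeq (GRCh38.p14), KLK2 at chr19:50873189-50873438 and KLK3 at chr19:50854665-50854914, with GNACA and GTNCT, 4 bases apart, and the bases between them in capitals.
KLK2: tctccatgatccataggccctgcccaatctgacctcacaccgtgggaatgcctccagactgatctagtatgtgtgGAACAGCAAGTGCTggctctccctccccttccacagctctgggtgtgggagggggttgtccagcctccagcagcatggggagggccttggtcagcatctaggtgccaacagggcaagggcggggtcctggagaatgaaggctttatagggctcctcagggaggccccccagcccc
KLK3: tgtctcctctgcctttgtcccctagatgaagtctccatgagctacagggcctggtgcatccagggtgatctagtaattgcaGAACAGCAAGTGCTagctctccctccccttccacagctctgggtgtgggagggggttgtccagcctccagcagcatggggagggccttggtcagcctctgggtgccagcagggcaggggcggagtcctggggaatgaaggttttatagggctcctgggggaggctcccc
The match lies 175 to 162 bases before the start of KLK2 and 169 to 156 bases before that of KLK3. It was chosen after these sequences had been seen. On either strand it occurs in 208 of 35116 RefSeq promoters of this length (0.592%), and of the 25 androgen-induced genes matched to a promoter only these 2 hold it. The 2 promoters also share an unbroken run of 80 bases.

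The region at the KLK2 promoter, centred 0.219 kb upstream of the gene start at chr19:51376264-51376676, had normalised pileups of 118, 111 and 97.7 with DHT and 86.1, 83.6 and 78.6 with DMSO. The groups did not overlap, and the log2 change was 0.39 ± 0.11 (1.31-fold, adjusted p = 0.00191). It is also the region with the smallest adjusted p of the KLK3 locus. A region 23.4 kb from the start of KLK2 had a larger change that did not pass (0.51 ± 0.22, adjusted p = 0.064). The region 18.8 kb upstream of KLK3 rose by 0.35 ± 0.11 (adjusted p = 0.00823), and the one 4.02 kb upstream of KLK3 changed by 0.04 ± 0.11. No region at the KLK3 start itself was among those tested. Within 1 kb of that start the pileup ranked at percentiles of 84.6, 57.4 and 80.6 within the DHT libraries. In DMSO replicates 1 and 2 it ranked at 51.9 and 48.1, and DMSO replicate 3 had no peak there. At the KLK2 promoter the change did not pass with fold enrichment (0.07, adjusted p = 0.772), with background as a covariate (0.25, adjusted p = 0.257) or without the mean-variance trend (adjusted p = 0.0655).

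At 3 genes of factors that act with androgen signalling, more of the few tested regions fell than rose. Of 18 regions at FOXA1, HOXB13 and GATA2, 1 rose (5.56%, against 14.2% of all tested regions) and 8 fell (44.4%, against 14%). Their median log2 change was -0.41, against -0.05 over all regions. The region 46.2 kb upstream of FOXA1, at chr14:38110195-38110849, had normalised pileups of 37.7, 38.7 and 38.7 with DHT and 74.5, 61.8 and 77.6 with DMSO (log2 change -0.89 ± 0.15, adjusted p = 6.21e-07). A further 3 regions upstream of FOXA1, at 5.99, 21.3 and 28.7 kb, fell by 0.87 ± 0.22, 0.91 ± 0.20 and 0.63 ± 0.16, while those within about 1 kb of its start did not pass. The region that rose lay 28.0 kb from the FOXA1 start, beyond the gene, with a change of 0.37 ± 0.14 (adjusted p = 0.0314).

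The region 17.4 kb upstream of HOXB13 stood at 59.6, 54.4 and 49.7 with DHT against 92.0, 82.8 and 80.0 with DMSO (log2 change -0.64 ± 0.13, adjusted p = 3.11e-05). The peak at the HOXB13 start changed by less than its error. At GATA2, the gene of another pioneer factor, a region 57.9 kb from the start fell by 0.87 ± 0.28 on the log2 scale (adjusted p = 0.0114), and without DMSO replicate 2 it did not pass (adjusted p = 0.0858).

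At 4 genes known to be repressed by androgen, 2 of 13 regions rose (15.4%, close to the 14.2% of all tested regions) and 1 fell (7.69%, against 14%). OPRK1, the kappa opioid receptor gene, had 52.3, 51.9 and 44.3 with DHT and 22.6, 36.8 and 35.0 with DMSO at a region 44.9 kb from its start, beyond its end (log2 change 0.68 ± 0.18, adjusted p = 0.00164). It did not pass with fold enrichment (adjusted p = 0.204) or without DMSO replicate 1 (adjusted p = 0.0652). At BCHE, the butyrylcholinesterase gene, a region 90.4 kb from the start rose by 0.78 ± 0.21 (adjusted p = 0.00226), and one 83.6 kb from the start, the region of this list that fell, changed by -0.38 ± 0.11 (adjusted p = 0.00624). At UGT2B15, which encodes an enzyme that inactivates androgens, the change was 0.43 ± 0.18 (adjusted p = 0.0689), and at CAMK2N1, which encodes an inhibitor of calmodulin kinase II, it was -0.31 ± 0.25 (adjusted p = 0.381).

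Loci outside the androgen pathway also held regions that passed. At 7 constitutively expressed genes 3 of 42 regions rose (7.14%) and 7 fell (16.7%), against 14.2% and 14% of all regions. A region at RPLP0, a ribosomal protein gene, fell 2.17-fold (adjusted p = 1.23e-07) and one at TBP, the TATA-binding protein gene, 2.19-fold (adjusted p = 0.00171), and regions at ACTB and B2M rose by 0.82 ± 0.16 and 0.57 ± 0.19 on the log2 scale. Of 15 regions at the luminal genes KRT18 and FOLH1, 1 rose and 2 fell, with 1.17 ± 0.17 at KRT18 (adjusted p = 7.39e-09) and -0.60 ± 0.17 at FOLH1 (adjusted p = 0.00322, not passing with fold enrichment). At the 4 genes of other cell types 2 of 20 regions rose and 2 fell, all at PTPRC (the strongest 1.01 ± 0.22), and the values at VIM (-0.46 ± 0.19), COL1A1 (-0.18 ± 0.16) and ALB (-0.21 ± 0.20) did not pass.

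The regions that moved most were followed into the groups that had not been used to choose them. Of the 3203 regions that rose at least 2-fold, 92.0% ± 1.11 (SD, n = 3) had a top-ranked peak in the RES-A libraries with DHT and 10.4% ± 0.66 in those with DMSO, which the choice itself sets. In RES-A with ENZ the share was 19.7% ± 1.88, and with DHT+ENZ it was 52.4% ± 2.48. Every DHT+ENZ library, from 49.7% to 54.6%, lay between the DHT and the DMSO libraries. The choice sets the DHT and DMSO libraries far apart, so a place between them is not a result by itself. Of all tested regions, 68.4% had a top-ranked peak with DHT, 68.6% with DHT+ENZ, 68.3% with ENZ and 70.2% with DMSO (means of 3 RES-A libraries). The 632 regions that fell at least 2-fold ran the other way, with 5.64% ± 1.99 with DHT, 52.8% ± 2.38 with DHT+ENZ, 71.4% ± 1.82 with ENZ and 85.0% ± 2.22 with DMSO (SD, n = 3 each).

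For normalised pileup, regions were merged anew over the 12 RES-A libraries, and 2970 of these merged regions overlapped the regions with the 2-fold rise. Their median was 55.9 to 57.7 with DHT, 36.4 to 38.3 with DHT+ENZ, 24.2 to 25.5 with ENZ and 22.4 to 23.3 with DMSO. At the region upstream of SLC45A3 the libraries with DHT+ENZ stood at 56.8, 47.9 and 48.3 and those with ENZ at 32.1, 33.4 and 25.4. At the region 13.7 kb upstream of TMPRSS2 they stood at 75.2, 67.6 and 69.7 with DHT+ENZ and at 49.0, 57.9 and 55.7 with ENZ. SLC45A3 thus lay between the DHT and DMSO libraries with DHT+ENZ, whereas TMPRSS2 with DHT+ENZ was within the range of the DHT libraries or just under it. Both regions were picked by the smallest adjusted p of their locus for DHT against DMSO, which also sets these libraries apart.

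**Figure D4:**
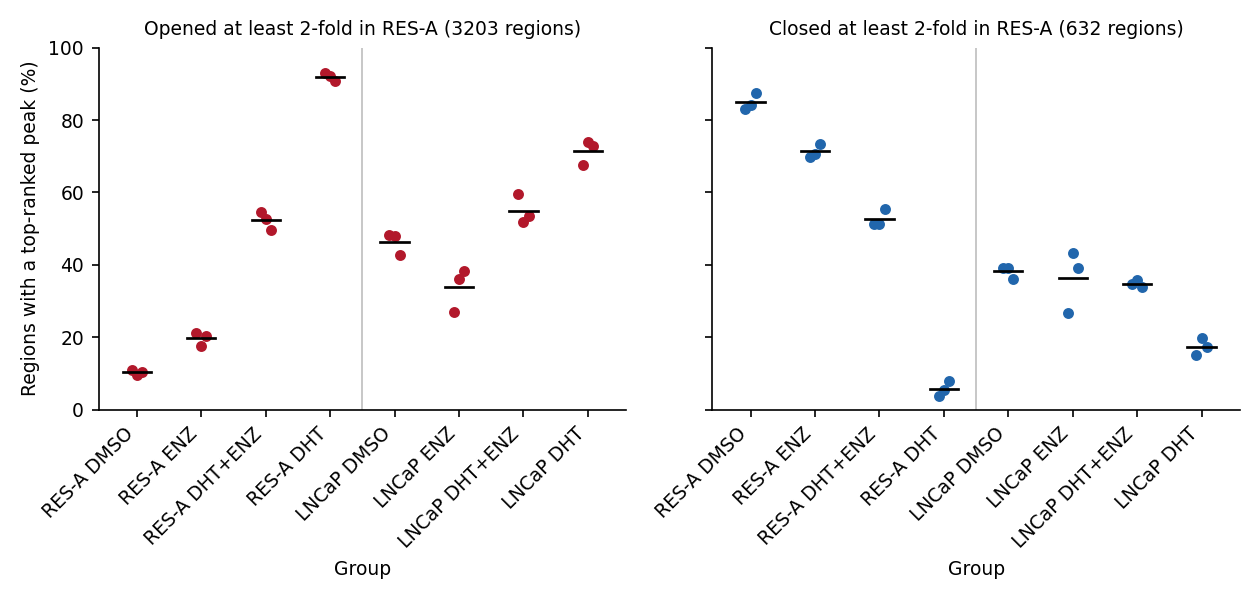
Share of regions with a peak among the 50000 top-ranked (vertical axis, percent) in each of the 24 libraries, for the 3203 regions that rose at least 2-fold with DHT in RES-A (left) and the 632 that fell at least 2-fold (right). Points are libraries and bars are means of 3. The DHT and DMSO libraries of RES-A were used to choose the regions. The DHT+ENZ libraries of RES-A lie between them in both sets, which that choice makes likely.

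Parental LNCaP libraries, which share no sample with the RES-A comparison, moved the same way. The regions that rose at least 2-fold in RES-A had a top-ranked peak at 46.3% ± 3.11 with DMSO and 71.5% ± 3.3 with DHT in LNCaP (SD, n = 3). The share in the absence of androgen was thus well above the 10.4% of RES-A, whose value the choice had set low. The regions that fell at least 2-fold were at 38.2% ± 1.83 with DMSO and 17.4% ± 2.3 with DHT in LNCaP. Of all tested regions 57.0% ± 0.673 had a top-ranked peak with DMSO and 51.5% ± 4.71 with DHT in LNCaP. In a joint fit of 12 libraries, over the 44931 regions with a peak in each of them, 4070 regions rose in RES-A and 96.2% of these had a positive change in LNCaP, against 47.7% of all regions. Of the 1635 that fell, 89.5% had a negative change in LNCaP, against 52.3% of all regions. The median change of those that rose was 0.86 in RES-A and 0.49 in LNCaP, where the first was used to choose the regions. LNCaP itself had 2363 regions that rose (5.26%) and 2016 that fell (4.49%), and 39.8% of the regions that rose and 19.7% of those that fell in RES-A passed the same way in LNCaP.

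The difference between the sublines passed the test at few of the regions that could be tested. These were the 43.6% of 103145 merged regions with a peak in each of the 12 libraries. Regions without a peak in some library, such as those found in 1 subline alone, were not tested. The interaction, the DHT effect in RES-A minus that in LNCaP, passed at 40 of the 44931 regions (0.089%), at 36 with a more positive effect in RES-A (0.0801%) and at 4 with a more negative one (0.0089%). All 36 had risen in RES-A, with a median change of 1.57, and their median in LNCaP was 0.26. LNCaP DHT replicate 1 was shallow, with a background of 0.74 and 82224 peaks, and without it 194 of 65050 regions passed. With each library centred on its median in place of quantile normalisation, 593 passed.

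SLC45A3 was among the 36. Its region 30.0 kb upstream changed by -0.02 in LNCaP (adjusted p = 0.957), and the interaction was 1.60 (adjusted p = 0.00495). In the LNCaP libraries the region already ranked near the top, at a percentile of pileup within the library of 99.5 or higher in each of the 3 libraries with DMSO and the 3 with DHT. In RES-A it ranked at 58.9, 54.7 and 53.0 with DMSO and at 96.1, 96.7 and 95.3 with DHT. The region was thus open in LNCaP with either treatment, and in RES-A with DMSO it ranked near the middle. At TMPRSS2, FKBP5 and KLK2 the interaction was 0.35, 0.44 and -0.12 and did not pass (adjusted p = 0.661, 0.64 and 0.867).

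Along the genome, the share of regions that rose was lowest on chromosome 19, at 4.27% of 1852 regions, and next lowest on chromosome 22, at 7.86% of 941. It was highest on chromosome 13, at 17.1% of 1388. The share that fell was 9.40% on chromosome 19 and 13.7% on chromosome 22, so that both had more decreases than increases.

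In windows of 10 Mb, the share of top-ranked peaks that each library had there also moved. Of 306 windows 74 passed (24.2%), 40 with a higher (13.1%) and 34 with a lower share (11.1%) with DHT. On chromosome 19 from 30000001 to 40000000 the share was 0.510%, 0.486% and 0.514% with DHT and 0.564%, 0.558% and 0.554% with DMSO, and from 10000001 to 20000000 the means were 0.630% and 0.683%. A window of chromosome 22 from 30000001 to 40000000 also lost share (0.379% against 0.425%). The largest gains were on chromosome 13 from 40000001 to 50000000 (0.330% against 0.286%), chromosome 1 from 210000001 to 220000000 (0.467% against 0.423%) and chromosome 18 from 50000001 to 60000000 (0.332% against 0.289%). These were differences among strong peaks, since with all deposited peaks 0 windows passed in limma and 24 had an unadjusted p under 0.05. Leaving out 1 library left between 28 and 65 windows.

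**Figure D5:**
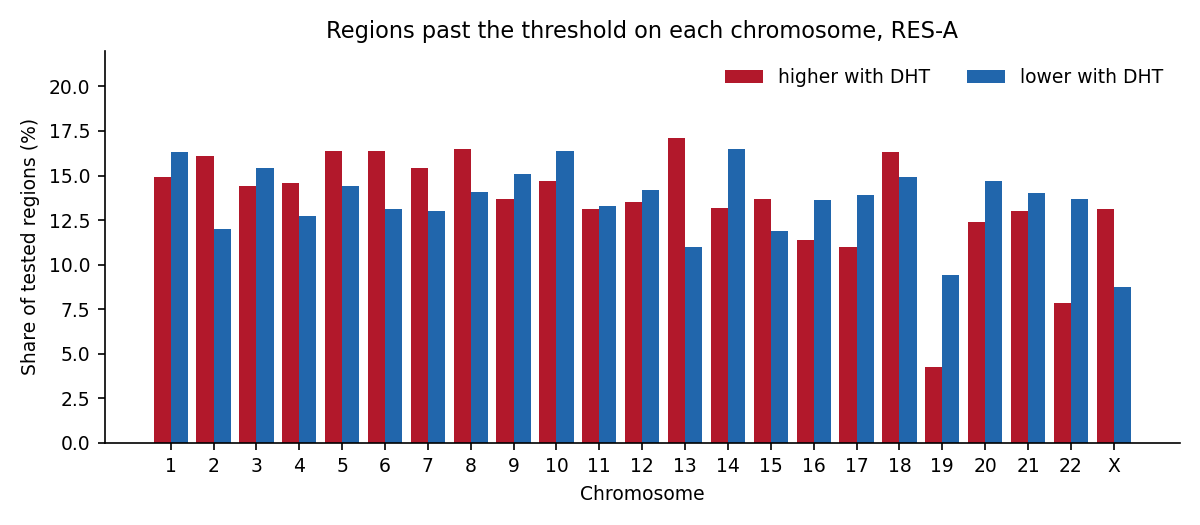
Share of tested regions that rose (red) and fell (blue) with DHT on each chromosome, in percent from 0. Chromosomes 19 and 22 have the lowest shares of regions that rose, 4.27% and 7.86%.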

How the data were processed

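The authors sequenced FAIRE DNA as single-end reads and called peaks in each library separately. The submitters' processing notes name BWA 0.7.8-r455, Picard 1.118 and MACS2 2.1.0, and positions are in hg19. The use of a control library was not given in the sources used here. The deposited lists give, per peak, the summit pileup (a signal not scaled between libraries), the −log10 of the p-value and of the q-value as the authors' peak caller wrote them, and a fold enrichment, a ratio over the expected pileup computed by the authors. Lists were ranked on −log10 p, peaks were merged at an overlap of 1 bp or more, and the highest pileup per region was compared with limma 3.58.1 in R 4.3.3 with eBayes and trend, without a replicate block. The background was recovered as the smallest value of (pileup + 1) / fold − 1 that many peaks of a library shared, which assumes that the caller added 1. In the 6 libraries 26.0% to 30.7% of peaks stood at that value. Interactions were fitted on 12 libraries of both sublines.

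The text names the 5 regions that rose and the 5 that fell most among those that passed and whose groups did not overlap. It also names up to 3 regions called with each treatment alone (highest pileup percentile) and 3 windows in each direction by difference in share. Genes named are those with the smallest adjusted p of each list, up to 10 androgen-induced and 4 of each other list. KLK3, KLK2, TMPRSS2, FKBP5 and OPRK1 were named in addition. Some genes that this rule names are not reported here. Gene spans in hg19 were written by hand, and 57 of 64 were within 10% of the length, and on the chromosome and strand, of a later annotation. Their exact positions were not checked against hg19, so distances rest on them. The members and lists were chosen with earlier results of these data known. The scripts were tested on simulated data. Alternatives were other normalisations, filters, overlaps, covariates, windows and flanks, a replicate block, and leaving out each library.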

Additional observations from a re-analysis of the deposited data

Results flagged for a closer look

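The DHT effect differed between RES-A and LNCaP at 40 of 44931 regions by the interaction test (limma, adjusted p under 0.05), 36 of them more positive in RES-A. In LNCaP 30 of the 36 had a positive and 6 a negative change. The other 4 all had a positive change in LNCaP (median 0.99) and a negative one in RES-A (median -0.34). The change passed at 3 of these 4 in LNCaP and at 2 in RES-A. In RES-A it was -0.04 on chromosome 14 and -0.12 on chromosome 22, near no change. The region at chr20:17017615-17018650 passed in both, at 0.69 in LNCaP and -0.56 in RES-A. Among the genes named, the region upstream of SLC45A3 had an interaction of 1.60 (adjusted p = 0.00495).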

How the results depend on the processing

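Counts of regions changed in pileup were within 1.5 times the reported 19875 except with fold enrichment (11668), 25000 top-ranked peaks (13138 of 39403 tested) and background as a covariate (10300). Leaving out 1 library gave 15402 to 18463. Of 759 recomputed values for the 43 named regions and gene regions, 0 changed sign where the reported value had passed, 19 no longer passed and 9 newly passed. Length calls fell to between 354 and 1190 without 1 library, the fewest without DHT replicate 1 (354) and replicate 2 (445), and then 892 without DHT replicate 3 and 1114, 952 and 1190 without DMSO replicates 1, 2 and 3. Windows that passed numbered 112 at 5 Mb, 0 with all deposited peaks and 28 to 65 without 1 library, with 35 and 28 without DHT replicates 1 and 2 and 28 and 46 without DMSO replicates 1 and 2. Regions called with DHT alone numbered 16 with 25000 top-ranked and 5655 with all deposited peaks, and 223 to 273 without 1 library (273 without DMSO replicate 3). Those called with DMSO alone numbered 0, 5080 and 1 to 6, with 6 without DHT replicate 3 and 2 without DHT replicate 1 or DMSO replicate 1. The interaction passed at 194 regions without LNCaP DHT replicate 1 and at 593 with median centring. The causes were not tested, except that fewer regions were tested with 25000 top-ranked peaks and that leaving out a library leaves fewer samples.

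The difference in median peak length of the libraries, -3.67 bp, ranged from -8.0 to 2.5 bp without 1 library and so changed sign. The number of peaks was lower by 20558 with DHT, from -26759.7 to -15772.7 without 1 library, covered length from -8.53 to -5.10 Mb, and background from -1.34 to -0.665.

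Deviations of same-numbered DHT and DMSO libraries from their group means correlated at 0.0455, 0.0257 and 0.0369, too low to take the numbers as pairs, although every library correlated best with its own number. With a replicate block 20496 regions changed in pileup, 68 windows and 46 interactions passed, and 0 regions passed in length in limma, where 13198 had an unadjusted p under 0.05. Read depth limits weak peaks most, and the count of reads was not used here.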
